A study of Mus musculus with 12 samples.

Results

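The comparison described here set livers of control mice refed with fructose against livers of control mice refed with sucrose. It rested on 4 of the 12 liver RNA-seq libraries of the study, 2 with each sugar, chosen by the genotype and the diet given in the sample labels. All 4 mice were controls of genotype *Med13*fl/fl on the C57BL6J strain, aged 12 weeks. The labels give no sex for these mice, and the Y-linked genes *Ddx3y* and *Eif2s3y* were at 1450 to 1731 and at 1186 to 1387 in the 4 livers. They had been trained to a feeding schedule, were fasted for 16 h and were then refed for 4 h with normal chow and water holding 30% sucrose or 30% fructose. The other 8 libraries came from 2 fasted control mice and from 6 mice labelled MED13-LKO, which carry the same floxed allele and an *Alb*-Cre transgene, driven by the albumin promoter of hepatocytes, with 2 fasted, 2 refed with sucrose and 2 refed with fructose. These mice were of the same strain and age. Their fast was also 16 h, and those refed had 4 h with the same 30% sugar water. The study asked how fructose acts on liver glycogen and on the gene for glucose-6-phosphatase, and this comparison asks which liver transcripts differed between the sugars at the same time after refeeding.

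Sucrose is a disaccharide of glucose and fructose, so both drinks delivered fructose and only sucrose delivered glucose beside it, in addition to the starch of the chow. In the liver, fructose is phosphorylated by ketohexokinase and split into trioses, which bypasses the early regulated steps of glycolysis, while glucose raises insulin. The study found no significant difference in insulin levels between the sugars, with a trend to lower levels early after refeeding with fructose. Insulin acts on lipogenic genes through SREBP1c and on gluconeogenic genes through the exclusion of FOXO1 from the nucleus, and sugar phosphates act through ChREBP, which binds the promoters of glycolytic, lipogenic and fructolytic genes. SREBP2 controls the genes of cholesterol synthesis and is held in check by sterols and the INSIG proteins.

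The deposited values are normalized counts per gene, and their sum ran from 21062200 to 22330900 in the 4 libraries. A step seen in the low values of genes with a single transcript placed the reads behind them at 18733600 to 21451100 per library. *Med13* itself was at 578 and 673 in the sucrose mice and at 607 and 778 in the fructose mice of the control genotype, and the libraries labelled MED13-LKO held 646 and 717 under sucrose and 681 and 1055 under fructose, so its RNA was not lower there and the values do not check that label. All 7 hepatocyte markers, *Alb* among them, were measured, and the pancreatic and adipocyte markers fell below the filter on low values. The adipocyte markers *Cfd*, *Adipoq* and *Retn* nevertheless stood at 77.2, 22.5 and 9.94 in fructose mouse 1 and at 0 in fructose mouse 2, and no other library exceeded 2.07, 3.44 and 2.79. The fructose mice also resembled each other less than any other pair of a group. The correlation of their log2 values over genes was 0.9644, against 0.9751 between the sucrose mice. Each fructose mouse was closer to both sucrose mice than to the other fructose mouse. The correlations with the sucrose mice were 0.968 and 0.9667 for fructose mouse 1 and 0.9684 and 0.9703 for fructose mouse 2. Values of single mice, or values without 1 mouse, are therefore given beside many of the fold changes and counts.

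Between fructose and sucrose, 5 of the 12366 genes tested passed an adjusted p-value of 0.05 (limma, with Benjamini-Hochberg adjustment over the genes tested), which is 0.0404% of them. These genes are called. The fit held all 12 libraries, so each standard error and p-value used a spread shared by the 6 groups. That spread may be too small for the fructose mice, which resembled each other less than any other pair. Fructose was higher for 3 of them and lower for 2. At an unadjusted p-value under 0.05, 575 genes were lower with fructose (4.65%) and 486 were higher (3.93%). Both fructose mice were below both sucrose mice for 17.5% of the genes and above them for 16.9%. The median log2 fold change over the genes tested was -0.01. The number called changed whenever a mouse was left out. That left a single mouse in its group, so the spread came from the other groups and the numbers cannot be set beside the 5. With only the 4 libraries in the fit 0 genes were called by limma, and 655 had an unadjusted p under 0.05.

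**Figure D1:**
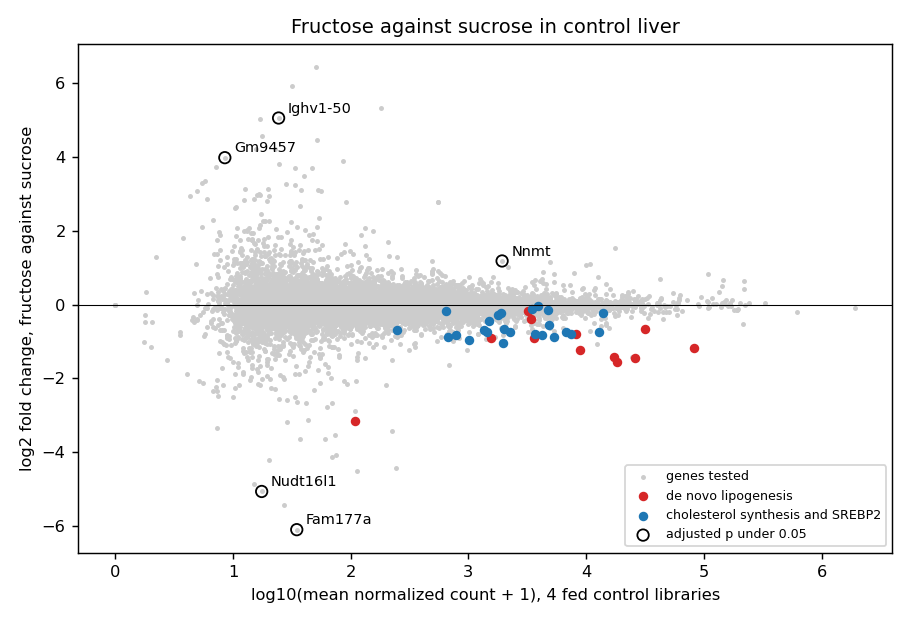
Log2 fold change of fructose against sucrose in control liver (vertical axis) against log10(mean normalized count + 1) of the 4 libraries (horizontal axis), with 1 point per gene tested. The 12 genes of de novo lipogenesis (red) and the 24 of cholesterol synthesis (blue) all lie below 0, and the 5 genes called are circled.

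*Nnmt*, which encodes nicotinamide N-methyltransferase, an enzyme that clears nicotinamide with a methyl group from S-adenosylmethionine, was the called gene with the highest expression. It lies on chromosome 9 of GRCm38 from 48591877 to 48605153 and has no 31-base stretch in common with any other gene. Its normalized counts were 1216 and 1141 with sucrose and 2872 and 2488 with fructose. The groups did not overlap, and fructose left the gene nearer to the fasted control mice, at 3602 and 3196, than sucrose did. The mean was 2.27 times as high with fructose, 2679.9 ± 271 against 1178 ± 53.0 (SD, n = 2 each). On the log2 scale the change was 1.18 (SE 0.09, adjusted p = 0.000612 from limma), and it ran from 1.08 to 1.29 with each of the 4 mice left out. The call was lost when only the 6 control libraries were fitted (adjusted p = 0.113 from limma) and when the fit held just the 4 libraries (adjusted p = 0.459). *Nnmt* was at 2336 and 2468 under sucrose and 2583 and 2593 under fructose when labelled MED13-LKO, and the test of the difference between the contrasts of the genotypes passed as well (log2 difference 1.07, adjusted p = 0.0151 from limma). Such a difference was called for 0.105% of the genes tested.

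The other 4 called genes had low values, and in each of them a group stood at or near 0. *Fam177a*, on chromosome 12, was at 67.0 and 68.0 with sucrose and is listed at 0 in both fructose mice (adjusted p = 0.000179 from limma). Other genes hold 98.5% of its 31-base stretches, so its estimated count depends on how reads were divided between copies. *Nudt16l1*, on chromosome 16, was at 39.1 and 26.9 with sucrose and is also listed at 0 in both fructose mice (adjusted p = 0.0241 from limma). The variable segment *Ighv1-50* of the immunoglobulin heavy chain was at 1.02 and 0 with sucrose and 45.3 and 47.1 with fructose (adjusted p = 0.000298 from limma), and other genes hold 69.2% of its 31-base stretches. The processed pseudogene *Gm9457* is listed at 0 in both sucrose mice and was at 17.7 and 12.3 with fructose (adjusted p = 0.0383 from limma). No fold is given for these 4 genes, because it would follow the pseudocount. The calls of *Nudt16l1* and *Gm9457* were lost with a pseudocount of 10 (adjusted p = 0.0571 and 0.219 from limma). All 4 calls were lost with only the 4 libraries compared in the fit, and *Fam177a* alone kept its call with the 6 control libraries.

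The genes of de novo lipogenesis, which turn citrate and acetate into fatty acids, were lower with fructose than with sucrose. Of 12 genes, 12 had a negative log2 fold change, beside 6331 of the 12366 genes tested. An unadjusted p under 0.05 was reached by 10 (4.65% of all genes tested were lower at that threshold). For 11, both fructose mice were below both sucrose mice (17.5% of all genes tested). The median log2 fold change was -1.05, beside -0.01 over all genes tested. None of the 12 was called, with adjusted p-values from 0.053 upwards. Without sucrose mouse 1 the number at an unadjusted p under 0.05 was 5 and the median -0.58, and without fructose mouse 2 they were 6 and -0.77. Fructose mouse 2 was the lower of the fructose mice for 10 of the 12 genes, and sucrose mouse 1 was the higher of the sucrose mice for all 12. The part of adipocyte RNA in the values of fructose mouse 1 was not tested.

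*Acly*, whose product cleaves cytosolic citrate to acetyl-CoA, was at 52529 and 24448 with sucrose and 13799 and 12316 with fructose. Both fructose mice were below both sucrose mice and above the fasted mice, at 5029 and 4321 (log2 fold change -1.46, standard error 0.36, adjusted p = 0.329 from limma). Without sucrose mouse 1 the log2 fold change of *Acly* was -0.91. *Acss2*, which makes acetyl-CoA from acetate, was at 5756 and 3682 with sucrose and 2744 and 2166 with fructose, and *Slc25a1*, the mitochondrial citrate carrier, at 3552 and 3198 with sucrose and 3100.1 and 2834 with fructose. The groups did not overlap for either gene, and the step between them was far smaller for the carrier (log2 fold change -0.19) than for *Acss2* (-0.92). The acetyl-CoA carboxylases make malonyl-CoA, *Acaca* for synthesis and *Acacb* at the mitochondrial surface. *Acaca* was at 11961 and 8757 with sucrose and 5937 and 5829 with fructose. *Acacb* was at 2658 and 1398 with sucrose and 1411 and 749.8 with fructose, where fructose mouse 1 lay just above sucrose mouse 2.

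Fatty acid synthase is the product of *Fasn*, found on chromosome 11 of GRCm38 from 120805846 to 120824547. It was at 35838 and 19511 with sucrose and 9981 and 8111 with fructose, and at 1290.1 and 1085 in the fasted mice. The lower sucrose mouse still exceeded the higher fructose mouse, and the mean was 3.06 times as high with sucrose (log2 fold change -1.56, standard error 0.37, adjusted p = 0.279 from limma). Without sucrose mouse 1 the log2 fold change of *Fasn* was -1.12. *Elovl6*, which elongates palmitate, was at 32459 and 17706 with sucrose and 10625 and 7499.5 with fructose (log2 fold change -1.43, and -0.99 without sucrose mouse 1). *Scd1*, the stearoyl-CoA desaturase, was at 167333 and 67058 with sucrose and 63815 and 34307 with fructose. Its sucrose mice differed from each other by more than sucrose mouse 2 differed from fructose mouse 1, and the log2 fold change of -1.18 ran from -1.84 to -0.52 with a mouse left out. *Me1*, the cytosolic malic enzyme that supplies NADPH, came closest to a call. It was at 14994 and 9907 with sucrose and 4976 and 5381 with fructose (log2 fold change -1.24, standard error 0.17, adjusted p = 0.053 from limma), and it was called with a pseudocount of 0.1 (adjusted p = 0.0365) and without the filter (adjusted p = 0.0406). Other genes hold 30.0% of the 31-base stretches of *Me1* and 33.4% of those of *Acaca*.

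*Pnpla3*, which encodes a lipid droplet protein under SREBP1c and ChREBP, had the largest ratio of the list. It was at 312 and 79.6 with sucrose and at 27.5 and 10.1 with fructose, beside 6.78 and 3.61 when fasted. The means differed 10.4-fold (log2 fold change -3.16, standard error 0.71, adjusted p = 0.225 from limma), while sucrose mouse 1 alone was far above every other control mouse. *Thrsp* and *Mid1ip1*, which encode the related proteins Spot 14 and MIG12 that assist the lipogenic enzymes, had log2 fold changes of -0.65 and -0.40 and unadjusted p-values of 0.237 and 0.055 from limma. Averaged over the 12 genes, the log2 level relative to the mean of the sucrose mice was -0.96 and -1.35 in the fructose mice and -2.33 and -2.71 in the fasted mice, and the sucrose mice themselves lay at 0.40 and -0.40. On this average the fructose mice lay between the fasted and the sucrose mice. In the libraries labelled MED13-LKO the median log2 fold change of fructose against sucrose was -0.17, and 0 of the 12 genes had an unadjusted p under 0.05 in the lower direction (limma, against 3.7% of all genes tested). The difference between the genotypes had an unadjusted p under 0.05 for 5 of them, more negative in control mice each time (3.61% of all genes tested), and none was called. The level was -1.59 and -0.89 in the libraries labelled MED13-LKO refed with sucrose, so the starting level also differed between the genotypes.

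**Figure D2:**
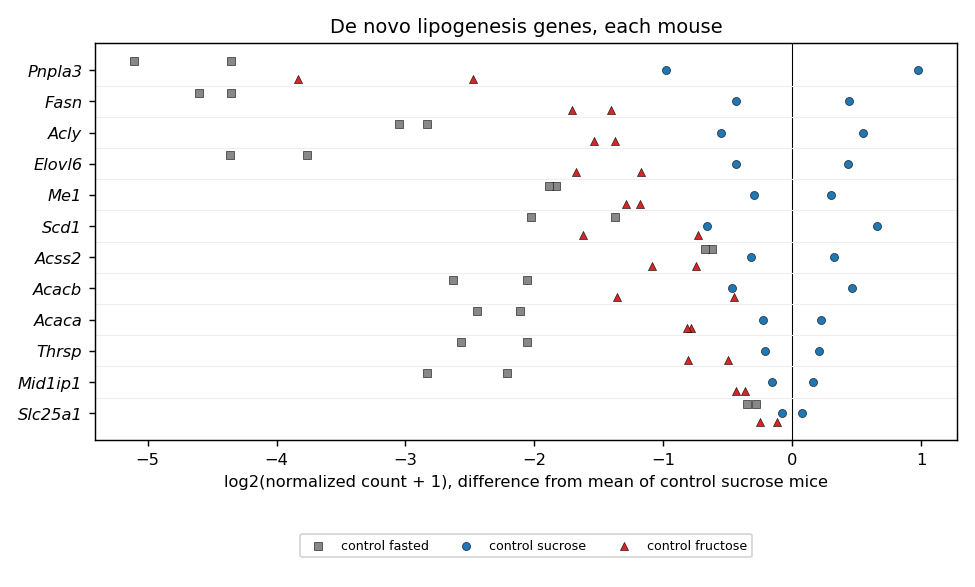
The 12 genes of de novo lipogenesis, with each control mouse as 1 point placed by its log2(normalized count + 1) minus the mean of the sucrose mice (horizontal axis). Fructose mice (red triangles) lie left of both sucrose mice (blue circles) for 11 genes, with *Acacb* as the exception, and fasted mice (grey squares) mostly lie further left.

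The promoters of genes of this pathway and of cholesterol synthesis are shown because the members lay on the same side of 0. The windows are the 250 bases before the RefSeq start site (build GRCm38.p6), read 5' to 3' on the strand of the gene. Capitals mark matches on either strand to the letters CACGTG (an E-box), TCACNCCAC (like a sterol regulatory element), TGTTTAC (a forkhead motif) or TGACGTCA (a cAMP response element), which do not overlap here. The *Fasn* window (chr11:120824548-120824797, minus strand) held none of these letters, the *Pnpla3* window (chr15:84167566-84167815, plus strand) held TGACGTCA, and the *Hmgcs1* window (chr13:119690101-119690350, plus strand) held TCACCCCAC from 137 to 129 bases before the start.
Fasn promoter: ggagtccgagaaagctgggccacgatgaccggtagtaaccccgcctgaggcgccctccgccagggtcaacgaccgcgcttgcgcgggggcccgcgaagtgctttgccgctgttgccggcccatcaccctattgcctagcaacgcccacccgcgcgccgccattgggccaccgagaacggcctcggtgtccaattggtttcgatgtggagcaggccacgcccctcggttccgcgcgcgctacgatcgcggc
Pnpla3 promoter: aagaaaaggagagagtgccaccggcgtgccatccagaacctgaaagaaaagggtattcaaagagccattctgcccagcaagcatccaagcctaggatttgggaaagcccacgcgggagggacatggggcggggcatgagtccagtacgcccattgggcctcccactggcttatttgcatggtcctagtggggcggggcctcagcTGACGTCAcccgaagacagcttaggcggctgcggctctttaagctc
Hmgcs1 promoter: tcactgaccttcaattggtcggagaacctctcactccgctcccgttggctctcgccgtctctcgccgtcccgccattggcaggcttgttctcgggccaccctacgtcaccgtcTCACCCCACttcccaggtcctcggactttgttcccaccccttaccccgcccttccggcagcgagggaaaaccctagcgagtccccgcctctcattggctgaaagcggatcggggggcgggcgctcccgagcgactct

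Windows were found for 11 of the 12 lipogenic genes, 16 of the 24 genes of cholesterol synthesis and 1 of the 5 genes called. CACGTG occurred in 1 of 12 lipogenic windows (*Slc25a1*) and in 3 of 19 windows of cholesterol synthesis (*Dhcr7*, *Hsd17b7* and *Sc5d*), beside 6.02% of all 32851 windows. It also occurred in the window of *Nudt16l1*. TCACNCCAC occurred in *Hmgcs1* alone among both lists, beside 1.05% of all windows. TGTTTAC occurred in *Elovl6* (3.17% of all windows) and TGACGTCA in *Pnpla3* (1.55% of all windows). These matches are a description of letters in the windows and were not tested as binding sites.

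The genes of cholesterol synthesis and SREBP2 were lower with fructose as well. Of 24 genes, 24 had a negative log2 fold change, beside 6331 of the 12366 genes tested. An unadjusted p under 0.05 in limma was reached by 18 (4.65% of all genes tested were lower at it). For 22, both fructose mice were below both sucrose mice (17.5% of all genes tested). The median log2 fold change was -0.71, and none was called (adjusted p from 0.0869 upwards). The size of the difference varied between the fructose mice. The mean log2 level relative to the sucrose mice was -0.36 in fructose mouse 1 and -0.82 in fructose mouse 2, against -0.40 and -0.49 in the fasted mice. Fructose mouse 2 was the lower of the pair for 22 genes. The number at an unadjusted p under 0.05 was 5 without that mouse and 20 without fructose mouse 1. It was 11 and 8 without sucrose mouse 1 and mouse 2. The median without fructose mouse 2 was -0.37, and 23 of the 24 genes stayed negative with each mouse left out in turn.

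*Hmgcs1*, the cytosolic HMG-CoA synthase on chromosome 13 of GRCm38 (119690379 to 119708260), had the smallest p of the list. It was at 4652 and 4629 with sucrose and 2755 and 2567 with fructose, a step far larger than the spread within either group (log2 fold change -0.80, standard error 0.13, adjusted p = 0.0869 from limma). *Acat2*, which makes the acetoacetyl-CoA for that enzyme, was at 2568 and 2321 with sucrose and 1557 and 1526 with fructose (log2 fold change -0.66), with tight groups. Other genes hold 43.7% of its 31-base stretches.

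In the mevalonate part of the pathway, *Mvk*, *Pmvk*, *Mvd*, *Idi1* and *Fdps* had log2 fold changes of -0.70, -0.82, -0.88, -0.80 and -0.89, which were -0.35, -0.48, -0.36, -0.38 and -0.57 without fructose mouse 2. *Fdps*, which makes farnesyl diphosphate, was at 6801 and 6960.0 with sucrose and 4647 and 2977 with fructose, with no overlap and with fructose mouse 2 lower. Other genes hold 27.9% of the 31-base stretches of *Fdps*. *Fdft1* and *Sqle* begin the sterol branch with squalene and its epoxide. *Fdft1* was at 2312 and 2964 with sucrose and 1628 and 999 with fructose, the largest difference of the list (log2 fold change -1.04, standard error 0.43). *Sqle* was at 2791 and 2765 with sucrose and 2098 and 1328 with fructose (log2 fold change -0.73). Of the later enzymes *Lss*, *Cyp51*, *Msmo1*, *Nsdhl*, *Hsd17b7*, *Tm7sf2*, *Sc5d* and *Dhcr7* each had an unadjusted p under 0.05, with log2 fold changes from -0.96 for *Dhcr7* to -0.22 for *Tm7sf2*. Without fructose mouse 2 these ran from -0.67 for *Sc5d* to -0.14 for *Hsd17b7*. *Sc5d*, the lathosterol oxidase, had the smallest p among them, at 16646 and 15732 with sucrose and 10152 and 9187 with fructose (adjusted p = 0.131 from limma). The factor gene *Srebf2* (-0.17), *Stard4* and *Ebp* were among the genes that did not reach that threshold.

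In the libraries labelled MED13-LKO the cholesterol genes lay mostly on the other side of 0. The median log2 fold change of fructose against sucrose was 0.26 there, 4 genes were higher at an unadjusted p under 0.05 in limma (3.99% of all genes tested) and 0 were lower. The difference between the contrasts was more negative in control mice at an unadjusted p under 0.05 for 16 of the 24 genes, against 3.61% of all genes tested, and none was called (the smallest adjusted p was 0.0523, for *Hmgcs1*). *Hmgcs1* was at 2249 and 2760.1 under sucrose and 3642 and 2924 under fructose there, and *Sqle* at 1053 and 1310.0 under sucrose and 2060.2 and 1984 under fructose. With sucrose, the list's mean level was -0.97 and -0.64 in the libraries labelled MED13-LKO, already below the control fructose mouse 1. With fructose it was -0.48 and -0.61, between the control fructose mice.

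**Figure D3:**
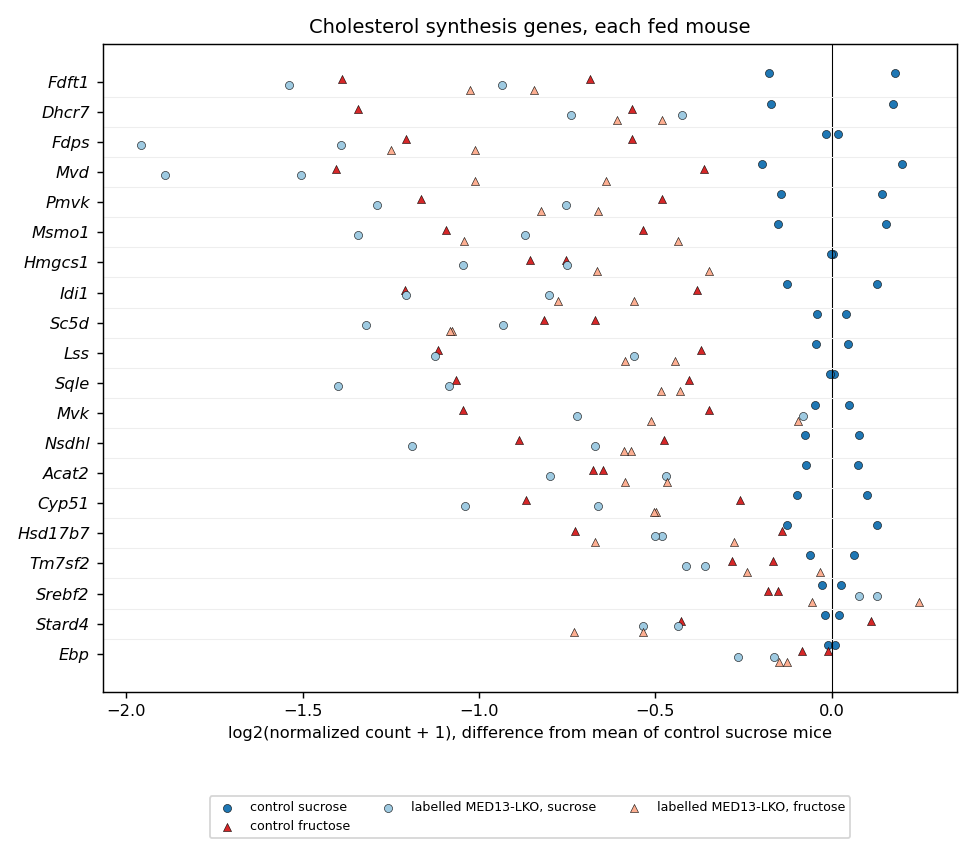
Genes of cholesterol synthesis and SREBP2 (20 of the 24), with each refed mouse as 1 point placed by its log2(normalized count + 1) minus the mean of the control sucrose mice (horizontal axis). Control fructose mice (dark triangles) lie left of control sucrose mice (dark circles) for 19 of them, while in the libraries labelled MED13-LKO (pale symbols) the fructose mice mostly lie right of the sucrose mice.

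Among the factors that control these pathways, *Srebf1* was at 19239 and 12668 with sucrose and 9605 and 11426 with fructose. The groups lay apart, and the log2 fold change of -0.58 had an adjusted p of 0.601 from limma (unadjusted p = 0.0568). The table holds 1 value for both of its isoforms. *Mlxipl*, the gene for ChREBP, was at 5968 and 5524 with sucrose and 4668 and 5297 with fructose (log2 fold change -0.21, adjusted p = 0.733). The alpha and beta isoforms of ChREBP also share 1 value, so a difference in either isoform alone was not tested. The ChREBP partner gene *Mlx* (-0.11), *Nr1h3* for LXR alpha (-0.02) and *Usf1* (0.28) had overlapping groups. The INSIG genes lay in opposite directions. *Insig1*, itself a target of SREBP, was at 21229 and 16328 with sucrose and 15174 and 9361 with fructose (log2 fold change -0.64, adjusted p = 0.562). *Insig2*, whose liver transcript is repressed by insulin, was at 1383 and 1369 with sucrose and 1515 and 1917 with fructose (log2 fold change 0.31, adjusted p = 0.499). Neither group overlapped with the other for either gene, and the fasted mice were at 8354 and 7849 for *Insig1* and 2074 and 2072 for *Insig2*.

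Of 18 ChREBP target genes, 17 had a negative log2 fold change (6331 of the 12366 genes tested did), with a median of -0.50. None was called. At an unadjusted p under 0.05, 5 were lower (4.65% of all genes tested were) and 1 was higher (3.93%). *Pklr*, the liver pyruvate kinase, was at 18792 and 14368 with sucrose and 7397 and 8376 with fructose, with a mean 2.1 times as high with sucrose (log2 fold change -1.06, standard error 0.25, adjusted p = 0.277 from limma). In the libraries labelled MED13-LKO it was lower as well, at 7582 and 10864 with sucrose and 4558 and 4808 with fructose (log2 fold change -0.95), and the difference of -0.11 between the genotypes had a standard error of 0.35. *Klf10* was at 993 and 668 with sucrose and 376 and 577 with fructose (log2 fold change -0.80). Other members lower at that threshold included *Pnpla3* and *Tkfc*, and *G6pc* was the 1 that was higher. *Txnip* (-0.50), *Angptl8* (-0.52) and *Slc2a2* (-0.49) had unadjusted p-values above 0.05.

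Of 12 genes of fructose uptake and breakdown, 7 had a negative and 5 a positive log2 fold change, with a median of -0.30. With fructose 3 were lower at an unadjusted p under 0.05 in limma (4.65% of all genes tested were) and 0 higher (3.93%). *Tkfc*, the triokinase that phosphorylates glyceraldehyde, was at 19536 and 14976 with sucrose and 10999 and 13379.9 with fructose (log2 fold change -0.50). *Slc2a5*, the fructose transporter GLUT5, had low values of 124 and 81.4 with sucrose and 45.2 and 66.7 with fructose (log2 fold change -0.86). Fructose was lower without overlap for both, and the fasted mice stood below the fructose mice for *Tkfc* (4784 and 4736) and above them for *Slc2a5* (106 and 179). Ketohexokinase, *Khk*, was at 2340.3 and 1999.8 with sucrose and 1557 and 1996 with fructose, so that fructose mouse 2 and sucrose mouse 2 nearly coincided (log2 fold change -0.30, adjusted p = 0.762 from limma).

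The 25 genes of glucose phosphorylation and glycolysis had a median log2 fold change of -0.05. With fructose 4 were lower at an unadjusted p under 0.05 (4.65% of all genes tested were) and 0 higher (3.93%). The 4 were *Pklr*, *Gpi1*, *Eno1* and *Pdk1*. *Gpi1*, the phosphoglucose isomerase, was at 9156 and 6284 with sucrose and 4912 and 4808 with fructose (log2 fold change -0.64). *Pdk1*, a kinase that turns off pyruvate dehydrogenase, was at 3163 and 2764 with sucrose and 1872 and 2082 with fructose (log2 fold change -0.58). In the pentose phosphate list, which makes NADPH and ribose phosphate, 4 of 9 genes were lower at that threshold, again beside 4.65%. They were *Pgd*, *Rpia*, *Tkt* and *Idh1*. The log2 fold change was -0.82 for *Rpia* (-0.38 without fructose mouse 2) and -0.43 for *Tkt* (-0.09 without sucrose mouse 1). *Pgd*, the phosphogluconate dehydrogenase, was at 2060.0 and 1042 with sucrose and 887 and 791 with fructose. Its high value in sucrose mouse 1 carried much of the log2 fold change of -0.81, which was -0.31 without that mouse. *Idh1* differed less and with tighter groups, at 12020.1 and 13276 with sucrose and 10856 and 10359.7 with fructose.

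None of 20 glycogen genes was called, and their median log2 fold change was -0.07. With fructose 4 were lower at an unadjusted p under 0.05 (4.65% of all genes tested were) and 0 were higher (3.93%). The glycogen-targeting subunits of protein phosphatase, which bring the phosphatase to glycogen synthase, were among them. *Ppp1r3b* was at 2616 and 2424 with sucrose and 1401 and 1446 with fructose (log2 fold change -0.82, adjusted p = 0.452 from limma). *Ppp1r3c* was at 821 and 606 with sucrose and 305 and 419.6 with fructose (log2 fold change -0.98, adjusted p = 0.499). In both genes the fructose mice were below both sucrose mice, while in the libraries labelled MED13-LKO *Ppp1r3c* was at 740.1 and 774 with sucrose and 1025 and 1393 with fructose, and the difference between genotypes was -1.64 (adjusted p = 0.603). *Ugp2*, which makes UDP-glucose, was at 16042 and 14214 with sucrose and 11633 and 11466 with fructose (log2 fold change -0.39). The synthase *Gys2* (-0.01), the branching enzyme *Gbe1* (-0.24) and the phosphorylase kinase subunit *Phkb* (0.05) had log2 fold changes with adjusted p-values of 0.986, 0.608 and 0.968 from limma.

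The gluconeogenic genes were divided. *G6pc*, the catalytic subunit of glucose-6-phosphatase, was at 3077 and 3178 with sucrose and 3665 and 7029.6 with fructose. Both fructose mice were above both sucrose mice, but fructose mouse 1 only by a small step. The log2 fold change of 0.70 (standard error 0.28, adjusted p = 0.527 from limma) was 0.23 without fructose mouse 2 and 1.17 without fructose mouse 1. In the libraries labelled MED13-LKO *G6pc* was at 5895 and 6498 with sucrose and 8529 and 9317 with fructose (log2 fold change 0.53). The difference of 0.17 between the genotypes had a standard error of 0.40. *Pck1*, phosphoenolpyruvate carboxykinase, was at 4235 and 9921 with sucrose and 7416 and 48079 with fructose. Fructose mouse 1 lay between the sucrose mice and fructose mouse 2 reached toward the fasted mice, at 82070.2 and 105586, and the log2 fold change of 1.54 (adjusted p = 0.596) was 0.19 without that mouse. *Slc25a25*, a mitochondrial ATP-magnesium carrier, was at 1156 and 1721 with sucrose, 2485 and 3273 with fructose and 7297 and 9336 when fasted (log2 fold change 1.01). *Got1*, the cytosolic aspartate aminotransferase, was at 2239.5 and 1435 with sucrose and 2716 and 2190.2 with fructose (log2 fold change 0.44), where sucrose mouse 1 lay above fructose mouse 2. At an unadjusted p under 0.05, 3 of 12 genes were higher with fructose (3.93% of all genes tested were) and 0 lower. The list as a whole did not lean higher. Its median log2 fold change was -0.08, with 8 genes negative and 4 positive.

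Among 19 insulin and FOXO1 target genes, the median log2 fold change was 0.11. Of these, 2 were higher at an unadjusted p under 0.05 in limma (3.93% of all genes tested were) and 1 was lower (4.65%). The list's mean level relative to the sucrose mice was -0.07 in fructose mouse 1 and 0.47 in fructose mouse 2, against 0.96 and 1.08 in the fasted mice. *Foxo1* itself was at 653 and 737 with sucrose and 522 and 919 with fructose (log2 fold change -0.41 without fructose mouse 2 and 0.40 without fructose mouse 1). *Igfbp1*, a secreted protein that insulin represses, was at 139 and 192 with sucrose and 123 and 632 with fructose, high in fructose mouse 2 only. *Irs2*, the insulin receptor substrate, was at 92.9 and 94.8 with sucrose and 122 and 170.0 with fructose, without overlap (log2 fold change 0.61, adjusted p = 0.596).

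**Figure D4:**
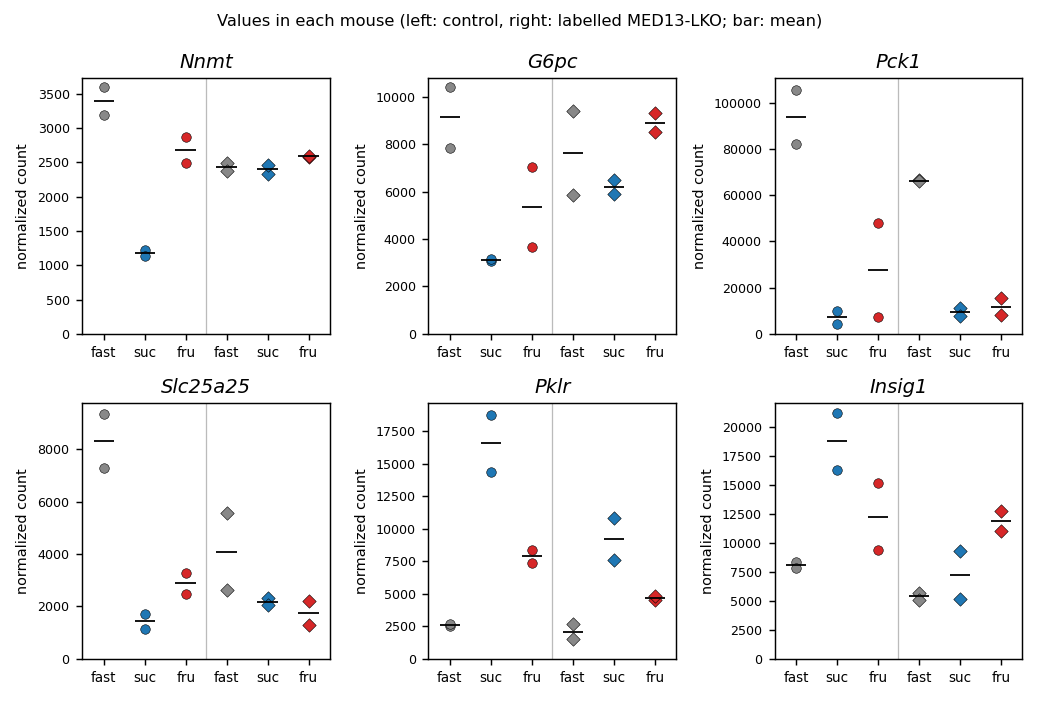
Normalized counts (vertical axis, linear from 0) of 6 genes in every mouse, with control mice on the left of each panel and mice labelled MED13-LKO on the right, and bars for the mean of 2 mice. *Nnmt* and *Slc25a25* were higher and *Pklr* and *Insig1* lower in both control fructose mice than in both control sucrose mice, while *Pck1* was high in 1 fructose mouse only.

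Of 19 genes of triglyceride synthesis and lipid droplets, 3 were lower and 2 higher with fructose at an unadjusted p under 0.05. Over all genes tested these shares were 4.65% and 3.93%. *Dgat2*, which completes triglyceride from newly made fatty acid, was at 19825 and 15234 with sucrose and 10639 and 13369 with fructose (log2 fold change -0.54), and the lipid droplet coat gene *Plin2* was at 4311 and 3872 with sucrose and 3267 and 2828 with fructose (log2 fold change -0.43). *Pnpla2*, the lipase ATGL, was at 666 and 678 with sucrose and 827 and 794 with fructose (log2 fold change 0.27). The acyltransferase genes differed. *Gpat4* was at 2669 and 2335 with sucrose and 3223 and 3014 with fructose (log2 fold change 0.32), whereas *Gpam*, at 174 and 74.2 with sucrose and 46.2 and 0 with fructose, is listed at 0 in fructose mouse 2. *Elovl5*, which elongates polyunsaturated fatty acids, was at 4575 and 3601 with sucrose and 2458 and 3064 with fructose (log2 fold change -0.56, adjusted p = 0.216 from limma), and the other 6 genes of its list did not reach the unadjusted threshold.

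Few genes of lipoproteins, fatty acid oxidation and nitrogen metabolism reached the unadjusted threshold. *Mttp*, which loads lipid onto apolipoprotein B, was at 9643 and 9410.1 with sucrose and 8067 and 8314 with fructose (log2 fold change -0.22). *Lpl*, lipoprotein lipase, was at 300.2 and 248 with sucrose and 557 and 309 with fructose, and its high value was in fructose mouse 1, which also held *Cfd*, *Adipoq* and *Retn*. The part of those cells in the *Lpl* value was not tested, and without that mouse the log2 fold change was 0.18. Of 29 genes of PPAR alpha and fatty acid oxidation only *Plin2* reached an unadjusted p under 0.05, with a median log2 fold change of -0.06. In the urea cycle *Slc25a15*, the ornithine carrier, was at 4204 and 4098 with sucrose and 4894 and 5205 with fructose (log2 fold change 0.28, adjusted p = 0.355), and among 31 genes of amino acid catabolism *Aass*, which degrades lysine (0.28), and *Got1* were higher at the unadjusted threshold. Of 22 hepatokine genes, 1 was lower and 0 were higher at that threshold (4.65% and 3.93% of all genes tested were). No gene of bile acid synthesis and transport (15 tested) or of purine breakdown (7 tested) reached it.

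In the stress lists, the 16 genes of the ATF4 and amino acid response had a median log2 fold change of -0.03. Of these, 9 were negative and 7 positive. With fructose 2 were higher at an unadjusted p under 0.05 in limma (3.93% of all genes tested were) and 0 lower (4.65%). *Mthfd2*, a mitochondrial folate enzyme, was at 15.6 and 11.03 with sucrose and 54.5 and 39.3 with fructose (log2 fold change 1.75, adjusted p = 0.237). *Psat1*, of serine synthesis, was at 7.67 and 7.74 with sucrose and 23.8 and 15.6 with fructose (log2 fold change 1.22). *Atf3*, an immediate early factor that also answers stress, was at 21.4 and 23.9 with sucrose and 56.1 and 46.5 with fructose (log2 fold change 1.14). All 3 had low values, the groups did not overlap, and the libraries labelled MED13-LKO refed with sucrose were at 51.6 and 32.0 for *Mthfd2* and 56.8 and 42.6 for *Atf3*. *Mt2*, a metallothionein, was at 67.7 and 70.7 with sucrose and 132 and 183 with fructose (log2 fold change 1.15), far below the fasted mice at 1794 and 1056, and *Nfe2l2* (-0.30), *Srxn1* (-0.39) and *Ugdh* (-0.24) of the same list were lower at the unadjusted threshold, with values of -0.18 without fructose mouse 1, -0.23 without sucrose mouse 2 and -0.16 without sucrose mouse 1.

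The 22 genes of endoplasmic reticulum chaperones had a median log2 fold change of -0.11 in control mice, none at an unadjusted p under 0.05. In the libraries labelled MED13-LKO the median was 0.48 and 14 were higher at that threshold (3.99% of all genes tested were). The difference between the genotypes reached it for 8 of them, with the control value the lower (3.61% of all genes tested reached it in that direction). The list was high in 1 mouse of these libraries, as its mean log2 level relative to the control sucrose mice was -0.81 and -0.95 in the sucrose mice, but -0.66 and 0.01 in the fructose mice. The control fructose mice were at 0.10 and -0.26. Of 18 acute phase genes, 15 had a positive log2 fold change, beside 6030 of the 12366 genes tested. With fructose 3 were higher at an unadjusted p under 0.05 (3.93% of all genes tested were) and 0 lower (4.65%). *Saa4* was at 3476 and 3935 with sucrose and 5413 and 5428 with fructose (log2 fold change 0.55), *Hp*, haptoglobin, at 44088 and 53008 with sucrose and 56950.0 and 63184 with fructose (0.31), and *Steap4*, a metalloreductase, at 2990.4 and 2452 with sucrose and 5121 and 3300.1 with fructose (0.60). Among clock genes, *Per3* was at 816 and 771 with sucrose and 500.0 and 582 with fructose (log2 fold change -0.55) and *Clock* at 372 and 373 with sucrose and 454 and 482 with fructose (0.33), and the other 16 genes did not reach the threshold. Single members reached it in other lists. *Hsph1*, a heat shock protein, was at 213 and 508 with sucrose and 654 and 631 with fructose, and its log2 fold change of 0.96 was 0.34 without sucrose mouse 1. *Usp18*, of the interferon list, was at 112 and 82.6 with sucrose and 141 and 144 with fructose (0.56, and 0.34 without sucrose mouse 2). In xenobiotic metabolism *Por* was at 6556 and 6949.9 with sucrose and 7829.8 and 9193 with fructose (0.33, and 0.21 without fructose mouse 2) and *Cyp2c29* at 50366 and 51791 with sucrose and 37360.3 and 41387 with fructose (-0.38). The sugars did not overlap in any of these 4 genes. *Tbx3*, of the zonation list, was at 256.1 and 363 with sucrose and 427 and 503 with fructose (0.60, and 0.35 without sucrose mouse 1), and *Cdk19*, of the Mediator kinase module, at 103 and 110.3 with sucrose and 160.5 and 185 with fructose (0.69). *Pes1*, of ribosome biogenesis, was at 709 and 700.0 with sucrose and 649.8 and 402 with fructose, and its log2 fold change of -0.46 was -0.12 without fructose mouse 2. Among 11 proliferation genes there was none.

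Few markers of other liver cells reached the unadjusted threshold. Of 9 Kupffer cell markers, all had a positive log2 fold change, beside 6030 of the 12366 genes tested. An unadjusted p under 0.05 was reached by 2 (3.93% of all genes tested were higher at it). The scavenger receptor *Marco* was at 75.1 and 63.0 with sucrose and 105 and 166 with fructose. The complement gene *C1qc* was at 520.2 and 419 with sucrose and 634 and 555 with fructose. The summed normalized counts of the 9 markers were 5254 and 4162 with sucrose and 5978 and 4913 with fructose, so the groups overlapped. Fewer cells of a type and less RNA per cell cannot be told apart in whole liver. The part of these cells in the values of the acute phase genes was not tested. *Col1a2*, a collagen gene of stellate cells, was at 420.3 and 351 with sucrose and 281 and 271 with fructose (log2 fold change -0.48), and the other 7 stellate markers, the 7 sinusoidal endothelial markers and the 7 hepatocyte markers did not reach the threshold, nor did the cholangiocyte, lymphocyte, neutrophil and erythroid markers tested.

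Beyond the lists, the largest log2 fold changes at an unadjusted p under 0.05 with a mean of at least 100 included several with uneven values. *Aqp8*, a water channel of bile canaliculi and mitochondria, was at 1374 and 701 with sucrose and 299 and 329 with fructose (log2 fold change -1.64, standard error 0.32, adjusted p = 0.174 from limma). *Atp2b2*, a plasma membrane calcium pump, was at 229 and 129 with sucrose and 35.9 and 45.1 with fructose (log2 fold change -2.07), beside 4.51 and 7.66 when fasted. *Reck*, an inhibitor of matrix metalloproteinases, was at 474 and 204 with sucrose and 103 and 114 with fructose (log2 fold change -1.51), beside 60.4 and 71.2 when fasted. For *Atp2b2* and *Reck* the fructose mice lay between the fasted and the sucrose mice, and for *Aqp8* they lay below the fasted mice too, at 343 and 404. *Marveld2*, which encodes the junction protein tricellulin, was at 184 and 200.2 with sucrose and 80.7 and 59.2 with fructose (log2 fold change -1.46), and the volume-regulated channel subunit *Lrrc8c* at 199 and 136 with sucrose and 53.0 and 62.6 with fructose (-1.50). *Chrna4* (329 and 58.9 with sucrose, 27.5 and 11.8 with fructose) and *Pi4ka* (225 and 345 with sucrose and 201 and 18.01 with fructose) each had 1 mouse far from the other of its group.

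In the other direction, *Atp11a*, a phospholipid flippase, was at 112 and 69.9 with sucrose and 451 and 187 with fructose (log2 fold change 1.70), and *Slc41a2*, a magnesium carrier, at 445 and 174 with sucrose and 902 and 448 with fructose (1.19, and 0.51 without sucrose mouse 2). *Tsc2*, the tuberin gene whose product restrains mTORC1, was at 34.0 and 62.9 with sucrose and 109.9 and 277 with fructose (1.89). *Tns2* was at 60.9 and 65.0 with sucrose and 267 and 136 with fructose (1.58) and *Cherp* at 82.0 and 76.3 with sucrose and 139 and 190.2 with fructose (1.03). Another 3 genes were higher without overlap, with sizes that rested on 1 mouse. *Ralgapa1* was at 152 and 11.4 with sucrose and 197 and 168 with fructose, and its log2 fold change of 2.07 was 0.26 without sucrose mouse 2. *Nol8* was at 124 and 25.8 with sucrose and 266 and 196 with fructose (1.99, and 0.88 without sucrose mouse 2). *Mup9* was at 983 and 1811 with sucrose and 6378 and 2019 with fructose (1.43, and 0.60 without fructose mouse 1). *Mup9* is uncertain, as other genes hold 85.6% of its 31-base stretches. *Srrm2*, *Prkaa1* and *Fam214a* are each listed at 0 in 1 of the 4 libraries while other mice of the same group were not at 0. *Prkaa1*, a catalytic subunit of AMP-activated kinase, was at 339 and 359.8 with sucrose and 0 and 268 with fructose and is listed at 0 in both fasted control mice, so no fold is given for these 3. None of these genes was called.

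Set side by side over 32 gene lists, the medians in control mice ran from -1.05 for de novo lipogenesis, -0.71 for cholesterol synthesis and -0.50 for ChREBP targets to 0.15 for acute phase and 0.17 for immediate early genes. The remaining lists lay between -0.30 and 0.11. The lists were chosen with earlier results of these data known, and members of several lists overlap.

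**Figure D5:**
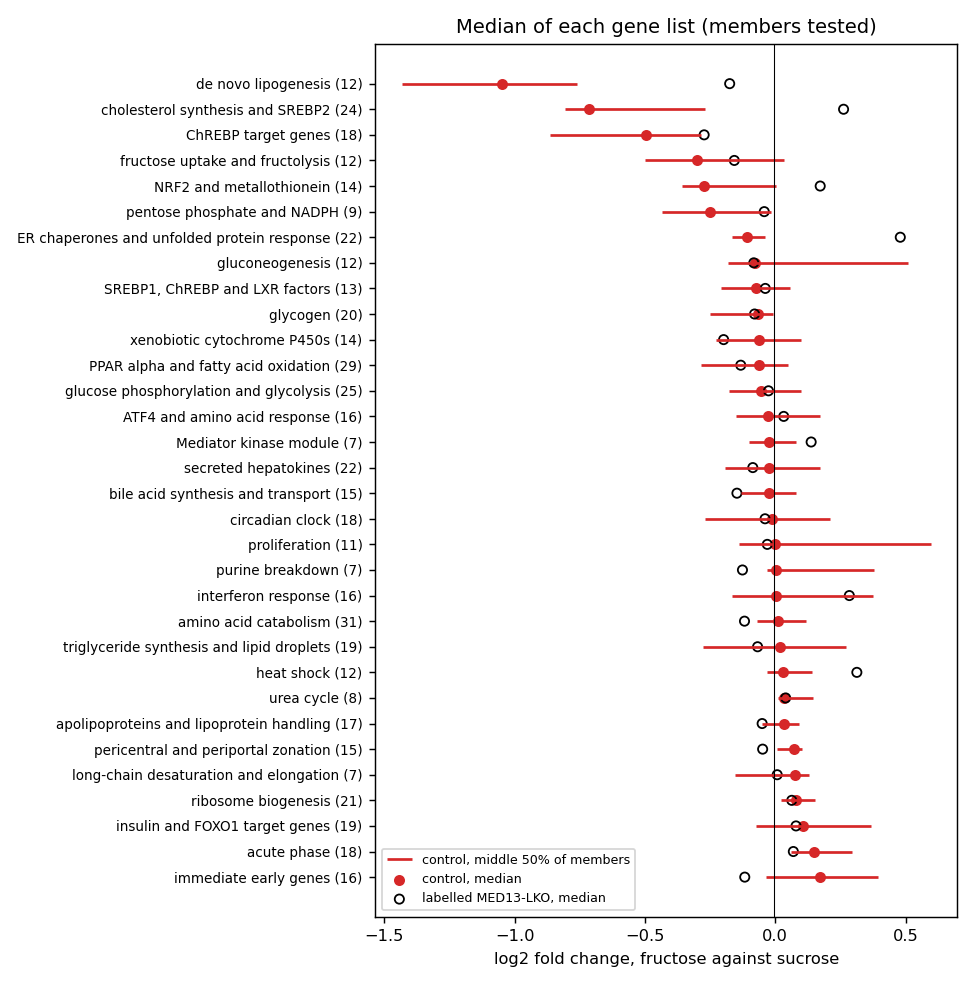
Median log2 fold change of fructose against sucrose for each gene list (horizontal axis), in control mice (red points, with a line over the middle 50% of the members) and in the libraries labelled MED13-LKO (open circles), with the number of members tested in brackets. The vertical line is the median of all genes tested in control mice, -0.01. De novo lipogenesis and cholesterol synthesis have the lowest control medians, -1.05 and -0.71.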

How the data were processed

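Liver RNA of 12 mice was sequenced as paired reads. According to the submitters' processing notes, the authors used Trim Galore 0.6.5, kallisto 0.46.0 and DESeq2 1.24.0 with mm10. The authors deposited 1 signal value per gene and library, the kallisto estimate scaled by DESeq2 (a normalized count), for 16346 genes. The transcript reference is not given in the sources used here. Kallisto divides reads among similar transcripts, so values of genes with shared sequence, and exact zeros, are uncertain.

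Groups and replicate numbers came from the sample titles, and no label gives litters or cages, so p-values measure only the spread between these mice. In each library 37.6% to 54.0% of values below 20 lay within 0.02 of a multiple of 1 step, so whole reads were not recovered and no count test was run. Genes with a mean of at least 10 over the 12 libraries (12366) were tested on log2(value + 1) with limma 3.58.1 (R 4.3.3), with 6 group means in 1 fit, a mean trend in the empirical Bayes step and Benjamini-Hochberg adjustment. Fold changes on this scale understate the changes of genes with low values. The fit was tested on simulated data. Symbols, positions and shared 31-base subsequences came from GENCODE M21 on GRCm38, which held 16222 of the identifiers. Promoters came from RefSeq GRCm38.p6. Python 3.11.15, pandas and matplotlib 3.10.9 made the tables and figures.

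The libraries and gene lists were chosen with earlier results of these data known. Named genes were all genes called, the 12 in each direction with the largest log2 fold change at an unadjusted p under 0.05 without overlap and with a mean of at least 100 in the 4 libraries (predicted genes, Rik clones and pseudogenes left out), list members at an unadjusted p under 0.05, and genes measured in the study. Other members are named with their values and were chosen after these were seen. Alternatives tried were other pseudocounts (0.1 and 10), dropping the filter, rescaling to equal 75th percentiles, a block for replicate number, fewer groups per fit, sample weights and each mouse left out. Motif searches in the cholesterol list and counts per list under each alternative were added after seeing the data. Some members counted in the lists are not reported here by name. Mice given plain water were not analysed here.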

Additional observations from a re-analysis of the deposited data

Results flagged for a closer look

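For 4 of the genes called in control mice the sugar contrast differed between the genotypes by the test of the interaction in limma, given here as the control contrast minus that of the libraries labelled MED13-LKO on the log2(value + 1) scale. For *Nnmt* the difference was 1.07 (adjusted p = 0.0151), with 2489 and 2382 in the fasted libraries labelled MED13-LKO. For *Fam177a* it was -6.30 (adjusted p = 0.00179), and the libraries labelled MED13-LKO held 112 and 53.3 under sucrose and 117 and 67.6 under fructose, with no library at 0. For *Ighv1-50* it was 7.38 (adjusted p = 0.00044), against 189.5 and 196 under sucrose and 36.5 and 38.9 under fructose there. For *Gm9457* it was 5.93 (adjusted p = 0.0151), against 44.3 and 48.2 under sucrose and 12.9 and 9.73 under fructose. The sizes for the last 3 genes follow the pseudocount, since a group is at or near 0. With 2 mice in a group, no mouse could be checked as standing apart within its group for single genes.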

How the results depend on the processing

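The numbers of genes called depended on the setting. In control mice 5 genes were called, and 12 with a pseudocount of 0.1, 3 with a pseudocount of 10, 8 with no filter, 3 with sample weights, 1 with only the 6 control libraries and 0 with only the compared groups. Leaving out a mouse gave 8 to 73. The numbers at an unadjusted p under 0.05 were 1061, and 655 with only the compared groups, 702 with sample weights and 870.0 to 1486 with a mouse left out. In the libraries labelled MED13-LKO 5 genes were called, and 8 with a pseudocount of 10, 13 with sample weights and 0 to 9 with a mouse left out. For the difference between genotypes they were 13, and 4 with only the compared groups, 8 with sample weights and 2 to 36 with a mouse left out. A replicate block left 3, 3 and 8 genes called in these comparisons. Mice with the same number deviated with a correlation of 0.0522 between the control sucrose and fructose groups, with only 2 pairs, so the numbers were not taken to pair the mice.

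With a mouse left out, the median of de novo lipogenesis ran from -1.45 to -0.58 and its number at an unadjusted p under 0.05 from 5 to 11, and for cholesterol synthesis they ran from -0.88 to -0.37 and from 5 to 20. These medians and numbers were within 1.5 times under every other setting. Of 1440 alternative values for the 120 named genes, 9 changed sign, all in genes measured in the study with log2 fold changes near 0. *Foxo1* turned to 0.00315 with equal 75th percentiles. With a mouse left out it ran from -0.41 to 0.404, and the others ran from -0.168 to 0.144 (*Gys2*), -0.0388 to 0.319 (*Med13*), -0.267 to 0.0397 (*Mlx*), -0.0408 to 0.00523 (*Nr1h3*), -0.0644 to 0.157 (*Phkb*) and -0.192 to 0.0826 (*Ppib*). The causes were not tested. With 2 mice per group, smaller changes may not be detectable.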

Other observations

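A set of low-expressed immunoglobulin genes and processed pseudogenes followed the pattern of *Ighv1-50* across all 6 groups. They were picked after their values were seen, as genes called for the difference between the genotypes in limma. *Ighg1*, the constant region of an immunoglobulin G heavy chain, was at 25.9 and 44.6 in fasted, 4.02 and 0 in sucrose and 36.4 and 46.1 in fructose mice of the control genotype. The libraries labelled MED13-LKO held 31.01 and 28.8 when fasted, 136 and 173 under sucrose and 19.7 and 41.9 under fructose. *Igkv11-106* was listed at 0 in both control sucrose mice, 7.75 and 10.1 with control fructose and 40.7 and 83.9 in the libraries labelled MED13-LKO refed with sucrose. *Gm4883*, *Rps12-ps24* and *Gm21399* are listed at 0 in both control sucrose mice as well, and *Gm13456* was at 7.02 and 3.1 there and at 122 and 128 in the libraries labelled MED13-LKO refed with sucrose. For these genes the fasted and fructose mice of both genotypes lay between the sucrose mice of the control genotype, which were lowest, and those labelled MED13-LKO, which were highest. The summed lymphocyte markers were 69.9 and 32.6 in the control sucrose mice and 59.4 and 67.0 in those labelled MED13-LKO, and their part in these values was not tested.

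*Acsl3*, an acyl-CoA synthetase of lipid droplets and the endoplasmic reticulum, is in none of the lists. It was at 1948 and 1715 in sucrose, 1069 and 1079.8 in fructose and 906 and 960.5 in fasted control mice (log2 fold change -0.77, adjusted p = 0.0674 from limma), while the libraries labelled MED13-LKO held 580.2 and 712 under sucrose and 899 and 975 under fructose. The difference between the genotypes was called (log2 difference -1.31, adjusted p = 0.0151 from limma).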
